A study of Mus musculus with 16 samples.

Results

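Potassium channel genes outside the Kv1 (Kcna) family were described in the hippocampus of mice labelled knockout for Kcna1, a Kv1 subunit gene, and of wild type mice. The members were chosen by name and by depth: the gene name starts with Kcn, it is not a Kcna or Kcnab gene, and it is none of Kcnj10, Kcnj13, Kcne2 and Kcnq1ot1. A member also had at least 10 counts in at least 4 of the 16 libraries. Of 49315 genes in the table, 83 had such a name and 70 reached the minimum. The other 13 names stayed below it: Kcnj1, Kcnmb3, Kcnk16, Kcnk18, Kcne1, Kcnj15, Kcnv2, Kcnk15 and Kcnk7 reached 10 counts in 0 libraries, Kcne3 in 1, and Kcnn4, Kcnmb4os1 and Kcnk5 in 2. Just inside the minimum were Kcnh8, with 6 libraries at 10 or more counts, and Kcnmb1, with 12.

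RNA from the hippocampus of 16 mice was sequenced, 4 mice in each of 4 groups: wild type on a standard diet, Kcna1 knockout on a standard diet, wild type on a ketogenic diet and Kcna1 knockout on a ketogenic diet. Mice without Kcna1 are a known model of epilepsy, and a ketogenic diet replaces most carbohydrate with fat. The labels give neither strain, age, sex, the knockout allele nor the time on the diet, and the tissue field says brain while the sample text says hippocampus. Each column of the table is named by an animal tag, which names the libraries here.

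Potassium channels let potassium leave or enter the cell and so set the resting potential, end each action potential and limit repetitive firing. The voltage-gated families Kv2, Kv3, Kv4 and Kv7, the calcium-activated BK and SK channels, the inward rectifiers (Kir) and the K2P leak channels each have their own genes, and auxiliary subunits such as the KChIPs, BK beta subunits and Kcne proteins change how the pores open and where they sit. Kv7 channels carry the M current, which restrains neuronal firing.

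The 70 members were 2 Kv2, 4 Kv3, 3 Kv4, 4 KChIP and 5 Kv7 genes, 9 genes of silent subunits that modify Kv2, 8 genes of the EAG, Erg and Elk group, and 1 BK pore and 3 BK beta genes. There were also 3 SK genes, 2 sodium-activated channel genes, 11 Kir genes, 9 K2P genes and 2 Kcne genes, together with Kcnu1, Kcnrg and 2 antisense RNAs, Kcnd3os and Kcnmb4os2.

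Total counts ranged from 13440230 to 22309504 per library. Kcna1 measured 107 to 130 CPM (counts scaled to a common library size) in the 8 wild type libraries and 43.4 to 47.2 CPM in 7 of the 8 libraries labelled knockout. The remaining library labelled knockout, KC888LL on the standard diet, measured 82.0 CPM, between the ranges. Kcna1 RNA was therefore lower and not absent in the libraries labelled knockout, with log2 fold changes of -1.13 ± 0.15 on the standard and -1.38 ± 0.15 on the ketogenic diet (SE; edgeR, adjusted p = 0.0339 and 0.0032). A count per gene does not show which part of Kcna1 these reads cover. Every result on knockout mice fed the standard diet includes KC888LL under its label, and those that turn on it are also given without it. Y-linked genes were expressed in KC890RL, KC872RL, KC873RR and KC846L, which fall in 3 of the 4 groups. The summed CPM of 6 microglia markers was 500.5 in KC872RL and 505.6 in KC873RR, both knockout on the standard diet, and 225 to 276 in the other 14 libraries. The summed CPM of 6 oligodendrocyte markers was 5016 ± 212 (SD, n = 4) in knockout mice fed the standard diet and 2684 ± 685 (SD, n = 4) in knockout mice fed the ketogenic diet, and all 6 passed the test as lower on the ketogenic diet. In wild type mice the sum was 5224 ± 916.6 (SD, n = 4) on the standard and 3687 ± 352.5 (SD, n = 4) on the ketogenic diet. Pan-neuronal markers (Snap25, Syt1, Rbfox3 and Camk2a) were present in every library. In these bulk samples, fewer cells of a type and less RNA per cell cannot be told apart.

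Summed over the members, 0.366% to 0.415% of a library's counts fell on these genes. Their summed level was 4042 ± 92.0 CPM (SD, n = 4; range 3968 to 4168) in wild type mice fed the standard diet. Wild type mice fed the ketogenic diet had 4123 ± 33.4 CPM (SD, n = 4). Knockout mice fed the ketogenic diet had 4043 ± 70.1 CPM (SD, n = 4). Among knockout mice fed the standard diet it was 3568, 3584 and 3791 CPM in KC872RL, KC873RR and KC893RL, below every wild type library, and 4067 CPM in KC888LL, within the wild type range.

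Levels of different genes were compared per kilobase of exon (CPM per kb). In wild type on the standard diet Kcnip2, whose KChIP product attaches to Kv4 channels and sets their surface level and gating, was highest at 62.2 ± 2.65 CPM per kb (SD, n = 4). Kcnj4, a strong inward rectifier, was at 29.2 ± 5.36, and Kcnd2, the main Kv4 pore gene of hippocampal dendrites, at 28.3 ± 1.94 CPM per kb (SD, n = 4). The leak channel gene Kcnk1 (25.4), the Kv3 gene Kcnc1 (24.7), the GIRK genes Kcnj3 (22.4) and Kcnj9 (21.9) and the Kv3 gene Kcnc4 (22.0 CPM per kb) were also among the 10 highest, and neighbours in this stretch differed by less than the SD of at least 1 of them. The lowest members were Kcne4 at 0.301, Kcnq1 at 0.224, Kcnmb1 at 0.213, Kcnj5 at 0.201 and Kcnh8 at 0.157 CPM per kb.

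**Figure D1:**
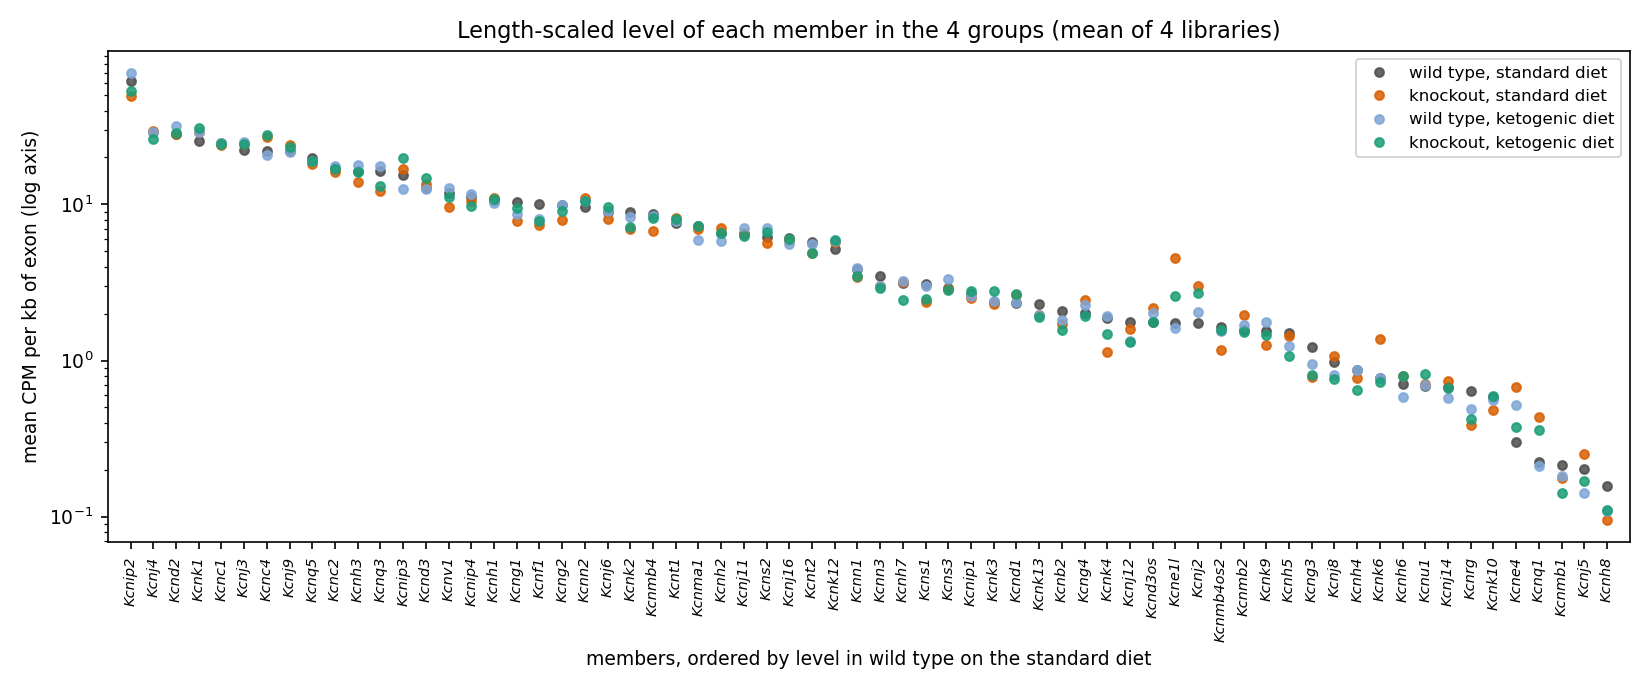
Mean CPM per kb of exon (log axis) of the members reported here in the 4 groups, 4 libraries each, ordered from left to right by the level in wild type mice fed the standard diet. Levels run from 62.2 for Kcnip2 to 0.157 for Kcnh8, and the 4 groups lie close together for most members, with wider gaps at members such as Kcne1l, Kcnk6, Kcne4 and Kcnq1.

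The genotypes were compared first on the standard diet, which asks how the other potassium channel genes stand in the Kcna1 knockout. None of the 70 members passed the test at an adjusted p under 0.05 (edgeR quasi-likelihood test, Benjamini-Hochberg over 17469 genes). Over all tested genes 0.00572% passed, which was Kcna1 alone. At an unadjusted p under 0.05 there were 22 members, 8 higher and 14 lower in the knockout, or 11.4% and 20% of members beside 7.64% and 6.69% of all tested genes. That count was 28 without KC888LL, 9 higher and 19 lower (beside 21.3% of all tested genes). It was 13 without KC872RL (7.34%), 12 without KC873RR (9.94%) and 14 with log2 CPM of Xist, a female-specific RNA, as a covariate (9.3%). Without both KC872RL and KC873RR it was 4 members, 2 higher and 2 lower (2.86% of all tested genes). It was also 4 in the 12 libraries with Xist and little RNA of the Y-linked gene Ddx3y (3.07%). Both fits leave the same 2 knockout libraries on this diet, KC893RL and KC888LL, the latter with Kcna1 at 82.0 CPM. The median log2 fold change of the members was -0.06 and that of all tested genes 0.0044, and 42 of 70 members were below 0 (60%, beside 48.9% of all tested genes). The members' median was -0.0284 without KC900RLL, -0.0337 without KC873RR and -0.1026 without KC888LL. Without both KC872RL and KC873RR it was -0.0096, with 36 members below 0, and in those 12 libraries -0.0051, with 37 below 0. DESeq2 called 4 members (1.01% of all tested genes), Kcnk6 and Kcnj2 as higher and Kcnk4 and Kcnmb4 as lower. Without KC888LL edgeR called 12 members, 17.1%, beside 5.73% of all tested genes. Of these, 4 were higher (Kcne1l, Kcne4, Kcnj2 and Kcnk6) and 8 lower (among them Kcng1, Kcnh3, Kcnk2, Kcnk4, Kcnmb4, Kcnq3 and Kcnv1). Kcne1l and Kcng1 are named here after their values were seen. Along with the lower members, the 4 pan-neuronal markers had log2 fold changes below 0 in this comparison, with a median of -0.20 and 0 calls; their part in the result was not tested.

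Kcnk4 had the smallest p of the members lower in the knockout. It encodes TRAAK, a mechanically and lipid gated K2P leak channel (chromosome 19, 6923966 to 6934515, minus strand, GRCm38 in GENCODE M21, as for all positions here). It measured 8.86, 7.74, 7.37 and 9.54 CPM in wild type and 4.53, 4.95, 6.28 and 4.63 CPM in knockout mice fed the standard diet, where 6.28 is KC888LL. The groups did not overlap, and all 4 knockout libraries were lower. The log2 fold change was -0.72 ± 0.16 (SE; edgeR, adjusted p = 0.177), and -0.84 with an adjusted p of 0.00652 in edgeR without KC888LL. Over 19 alternatives the adjusted p ran from 0.00652 to 0.999. On the ketogenic diet Kcnk4 measured 8.18, 8.04, 8.72 and 9.38 CPM in wild type and 4.82, 7.48, 6.19 and 8.11 CPM in the knockout. There the knockout libraries KC913RR and KC934R were lowest, KC935LL lay inside the wild type range, and the log2 fold change was -0.37 ± 0.15 (SE; edgeR, adjusted p = 0.489). Kcnk4 shares 587 bases, or 13.2% of its exon length, with the gene Catsperz on the same strand, so reads of the shared stretch could be counted for either.

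Kcnq3, a Kv7 subunit gene (chromosome 15, 65986387 to 66286642, minus strand), measured 239.9, 244.7, 211.7 and 261 CPM in wild type mice fed the standard diet. The knockout libraries on that diet measured 161, 162, 155 and, in KC888LL, 237 CPM. Those 3 low libraries lay below all 8 wild type libraries, and KC888LL lay among the wild type values. The log2 fold change was -0.42 ± 0.14 (SE; edgeR, adjusted p = 0.210), and -0.59 with an adjusted p of 0.00581 without KC888LL. On the ketogenic diet the wild type measured 274.5, 263, 247 and 248 CPM and the knockout 154, 228, 175 and 218 CPM in KC913RR, KC916RRL, KC934R and KC935LL. The groups did not overlap there, and the log2 fold change was -0.42 ± 0.14 (SE; edgeR, adjusted p = 0.417). The Kv7 gene Kcnq5 was at -0.13 on the standard diet.

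Kcnmb4, the neuronal beta subunit that slows BK channels, measured 25.8, 29.6, 29.1 and 31.8 CPM in wild type and 22.9, 20.1, 24.8 and 22.7 CPM in knockout mice fed the standard diet. Every knockout library was below every wild type library, with KC888LL the highest of them. The log2 fold change was -0.36 ± 0.09 (SE; edgeR, adjusted p = 0.192), and -0.42 with an adjusted p of 0.0131 without KC888LL. The antisense RNA Kcnmb4os2 shares 693 bases, 20.9% of the exon length of Kcnmb4, and as the use of strand is not given in the sources used here the reads of the pair cannot be separated. Kcnmb4os2 itself had a log2 fold change of -0.50 (edgeR, unadjusted p = 0.0360, adjusted p = 0.317).

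On the higher side stood Kcnk6, the K2P gene of TWIK2, together with Kcne4, an auxiliary subunit that inhibits several Kv channels, and Kcnj2, the Kir2.1 inward rectifier. Kcnk6 measured 3.64, 3.03, 3.06 and 3.14 CPM in wild type and 7.85, 6.002, 4.38 and 4.69 CPM in the knockout, with no overlap (log2 fold change 0.83 ± 0.20, SE; edgeR, adjusted p = 0.192). Kcne4 measured 0.628, 0.943, 0.974 and 0.653 CPM in wild type and 2.72, 1.69, 1.41 and 1.33 CPM in the knockout, also without overlap (log2 fold change 1.17 ± 0.32, SE; edgeR, adjusted p = 0.194). Kcnj2 measured 8.04, 11.6, 6.96 and 11.2 CPM in wild type and 20.5, 18.0, 10.1 and 17.2 CPM in the knockout (log2 fold change 0.80 ± 0.24, SE; edgeR, adjusted p = 0.202). For Kcnj2 the library that overlapped the wild type was KC888LL, at 10.1 CPM.

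The highest Kcnk6 and Kcne4 values were those of KC872RL and KC873RR, the libraries with the highest microglia marker sums. All 6 microglia markers had log2 fold changes above 0 in this comparison (median 0.51, 0 calls), and none was at 0 in any library; their part in the channel values was not tested. Without that pair, which leaves KC888LL and KC893RL as the knockout libraries, the log2 fold change of Kcnk6 was 0.49 (edgeR, adjusted p = 0.998). In that fit 0% of all tested genes passed. Over all alternatives run for them, the log2 fold change ran from 0.67 to 1.28 for Kcne4 and from 0.45 to 0.97 for Kcnj2. Kcnk13, the gene of the leak channel THIK-1, measured 6.09 and 6.002 CPM in KC872RL and KC873RR and 6.33 and 6.03 CPM in the other knockout libraries, below the wild type libraries at 6.60 to 7.61 CPM.

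Across this comparison 4 members were higher and 5 lower in the knockout with no overlap of the libraries, or 5.71% and 7.14% of members beside 2.97% and 2.89% of all tested genes. The higher members were Kcnk6, Kcne4, Kcnq1 and the SK gene Kcnn2, and the lower ones Kcnk4, Kcnmb4, Kcnk13, the silent subunit gene Kcns1 and Kcnrg, whose product regulates channel assembly. Kcns1 and Kcnrg are named because of these values. Kcnn2 measured 67.8 to 76.0 CPM in wild type and 76.2 to 84.7 CPM in the knockout, so the gap between the groups was narrow.

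**Figure D2:**
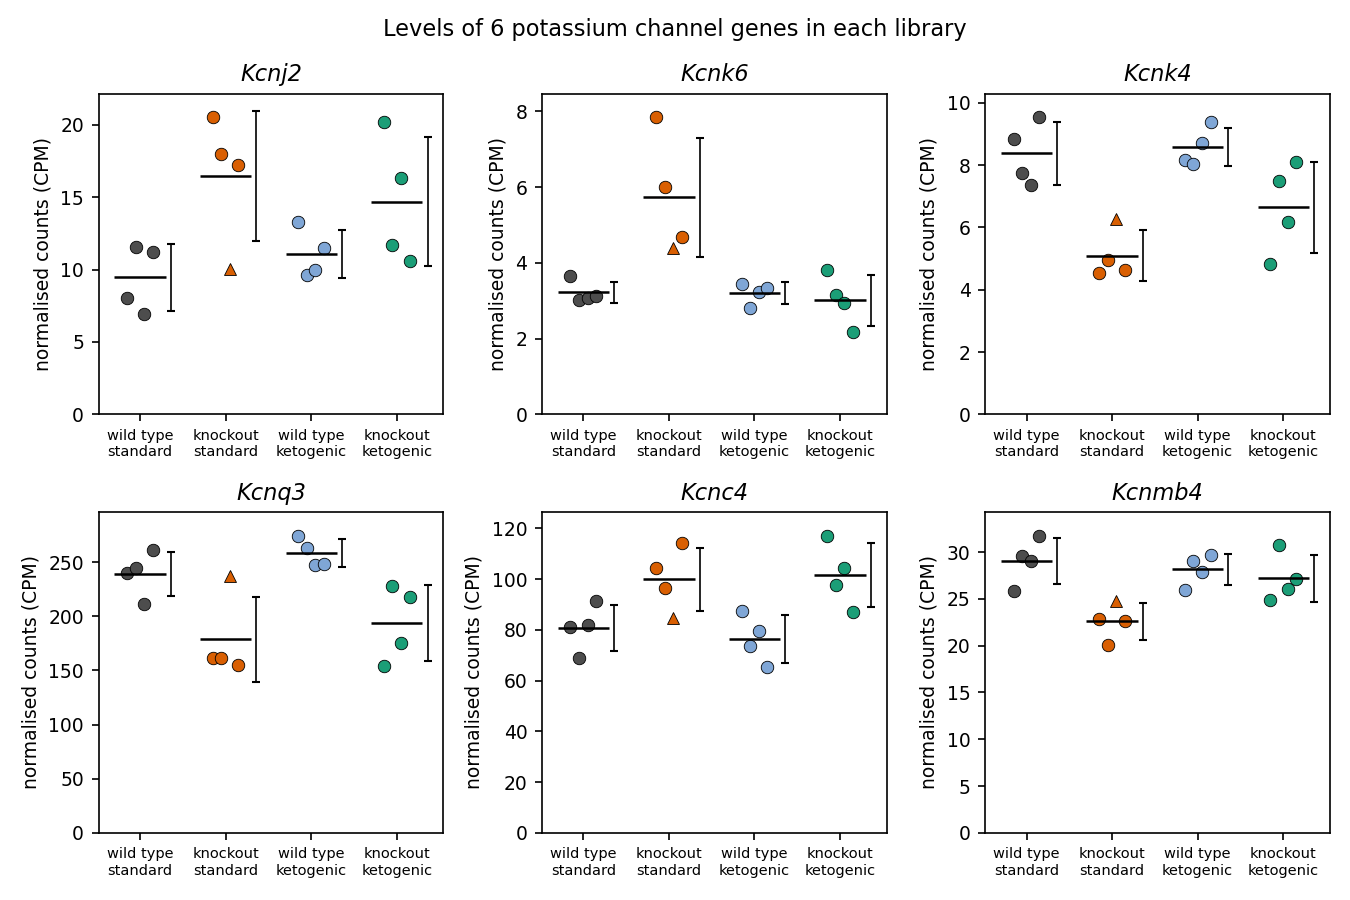
Normalised counts (CPM, axes from 0) of 6 members in each library, by group; points are libraries, horizontal lines are group means, bars to the right show 1 SD (n = 4), and the triangle is KC888LL, the library labelled knockout with 82.0 CPM of Kcna1. For Kcnq3 the triangle sits at 237 CPM among the wild type libraries, and for Kcnk6 all 4 knockout libraries on the standard diet lie above all others.

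On the ketogenic diet, knockout and wild type were compared in 8 other mice. None of the 70 members passed the test, beside 0.0172% of all tested genes (edgeR). At an unadjusted p under 0.05 there were 9 members (12.9% beside 9.22% of all tested genes). They were 4 higher and 5 lower ones, or 5.71% and 7.14% beside 5.24% and 3.97%. The count was 4 without KC913RR, 5 without KC934R, 15 without KC916RRL and 5 in the 12 libraries with Xist and little Ddx3y, beside 6.93%, 6.59%, 13% and 6.44% of all tested genes. The median log2 fold change of the members was -0.05, that of all tested genes 0.0035, and 41 of 70 members were below 0 (58.6%, beside 49% of all tested genes). Members with no overlap of the libraries were 3, all lower, beside 1.98% of all tested genes: Kcnq3, the SK gene Kcnn1 and the Elk gene Kcnh4, the last named for this reason.

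The members of smallest p on the ketogenic diet were, besides Kcnq3 and Kcnk4, Kcnc4, Kcnd3, Kcnip3 and Kcnh7. Kcnd3, the Kv4.3 pore gene, measured 126, 130.0, 122 and 101 CPM in wild type and 174, 120, 140 and 130 CPM in the knockout. One library at each end, KC846L at 101 and KC913RR at 174 CPM, lay apart from overlapping values (log2 fold change 0.24 ± 0.09, SE, edgeR, adjusted p = 0.476). Over 19 alternatives the log2 fold change of Kcnd3 ran from 0.12 to 0.30. Kcnip3, the calcium-binding KChIP3 that also acts as the transcriptional repressor DREAM, measured 39.0 to 49.8 CPM in wild type and 118, 49.7, 70.8 and 43.5 CPM in the knockout (log2 fold change 0.65 ± 0.27, SE; edgeR, adjusted p = 0.494). KC913RR and KC934R were the high libraries, and the others lay within the wild type range. Over 19 alternatives the log2 fold change of Kcnip3 ran from 0.30 to 0.83. Kcnh7, an Erg channel gene, measured 39.6 to 57.8 CPM in wild type and 32.9, 50.8, 33.2 and 31.4 CPM in the knockout, where KC916RRL alone overlapped (log2 fold change -0.41 ± 0.18, SE; edgeR, adjusted p = 0.508).

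The knockout comparisons on the 2 diets share no library, so they can be set beside each other. The log2 fold changes of 49 of 70 members had the same sign on both diets (70%: 31 below 0 and 18 above 0), beside 57.3% of all tested genes. Across the 70 members the log2 fold changes on the 2 diets had a Pearson's r of 0.46, and across all tested genes 0.28; genes are not independent replicates. An unadjusted p under 0.05 on both diets was reached by 5 members, or 7.14%, beside 1.76% of all tested genes. Each of the 5 had the same sign on both diets: Kcnk4, Kcnq3 and Kcnn1 were lower and Kcnc4 and Kcnq1 higher in the knockout. Of the 308 tested genes that reached it on both diets, 280 also had the same sign. Kcnn1 was near the threshold, with an unadjusted p of 0.0495 on the standard and 0.0481 on the ketogenic diet (edgeR). Without KC872RL and KC873RR only 4 members reached it on the standard diet, and 4 in the 12 libraries with Xist and little Ddx3y. Fewer than 5 members therefore reached it on both diets in those fits.

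**Figure D3:**
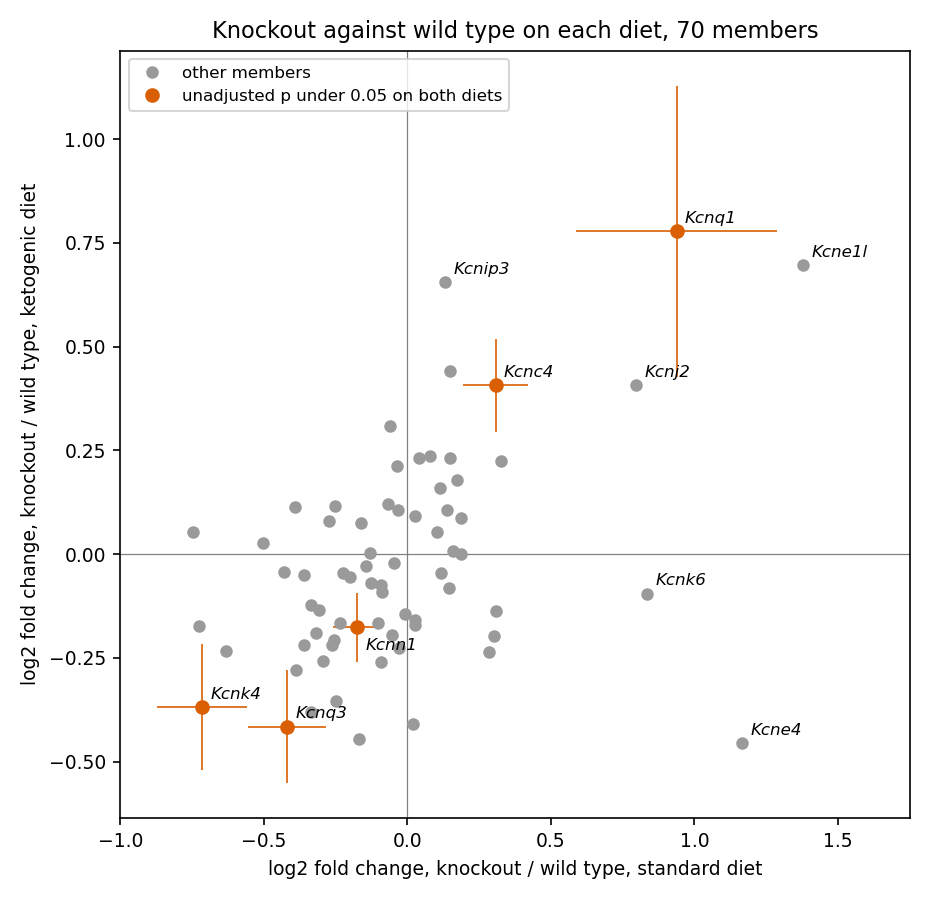
Log2 fold change between knockout and wild type of each of the 70 members on the standard diet (horizontal) and on the ketogenic diet (vertical), from separate mice; orange points, with SE bars, are the 5 members at an unadjusted p under 0.05 on both diets. Kcnk4, Kcnq3 and Kcnn1 lie at the lower left, Kcnc4 and Kcnq1 at the upper right, and Kcne4 and Kcnk6 lie far to the right with values below 0 on the vertical axis.

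When the knockout was compared with wild type over both diets, 0 of 70 members passed the test in edgeR, beside 0.0973% of all tested genes (0.0744% higher and 0.0229% lower), and 21 had an unadjusted p under 0.05. These were 7 higher and 14 lower members, or 10% and 20%, beside 8.14% and 7.7% of all tested genes. Without KC888LL there were 29, 9 higher and 20 lower (20.5% of all tested genes). Without KC872RL and KC873RR there were 9, 4 higher and 5 lower (8.28%), and in the 12 libraries with Xist and little Ddx3y also 9 (6.11%). The median log2 fold change was -0.07 for members and 0.007 for all tested genes, and 41 of 70 members were below 0 (58.6% beside 47.5%). Without KC872RL and KC873RR the members' median was -0.0322, with 42 below 0, and in those 12 libraries -0.0317, with 40 below 0. DESeq2 called 6 members (2.38% of all tested genes), of which Kcnk4 and Kcnq3 were lower and Kcnc4, Kcnj2, Kcnq1 and Kcne1l higher. Without KC888LL edgeR called 10 members, 14.3% beside 4.96% of all tested genes, 3 higher (Kcnc4, Kcne1l and Kcnj2) and 7 lower (Kcnb2, Kcnh3, Kcnk2, Kcnk4, Kcnmb4, Kcnq3 and Kcnv1).

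Kcnk4 again came first, at -0.54 ± 0.11 on the log2 scale (SE; edgeR, adjusted p = 0.0654), with adjusted p-values from 0.00102 to 0.814 over 26 alternatives, 7 of which called it. Kcnc4, which encodes the rapidly inactivating Kv3.4 subunit (chromosome 3, 107438303 to 107459552, minus strand), was higher in the knockout by 0.36 ± 0.08 on the log2 scale (SE; edgeR, adjusted p = 0.0888). It measured 81.0, 68.7, 81.9 and 91.3 CPM in wild type and 104.5, 96.6, 84.5 and 114 CPM in knockout mice fed the standard diet, with KC888LL, at 84.5 CPM, inside the wild type range. On the ketogenic diet it measured 87.5, 73.7, 79.6 and 65.2 CPM in wild type and 117, 97.5, 104 and 87.0 CPM in the knockout, where KC935LL was the library that overlapped. Kcnq3 was at -0.42 ± 0.10 on the log2 scale (SE; edgeR, adjusted p = 0.0992). The Kv3 genes Kcnc1 and Kcnc2 had log2 fold changes of -0.03 and -0.08, on the other side of 0 from Kcnc4.

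Kcnq1, the Kv7 gene of heart and epithelia, was near the low end of the members. It measured 1.19, 0.808, 0.487 and 1.18 CPM in wild type and 1.76, 2.04, 1.52 and 1.78 CPM in knockout mice fed the standard diet, without overlap, and 0.457 to 1.24 against 0.748 to 2.21 CPM on the ketogenic diet, with overlap. Its log2 fold change over both diets was 0.86 ± 0.25 (SE; edgeR, adjusted p = 0.127). The antisense RNA Kcnq1ot1 shares 121 bases with its exons, 2.96% of their length. Kcnn1, the SK1 gene, was at -0.18 ± 0.06 (SE; edgeR, adjusted p = 0.173).

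The promoters of Kcnk4 and Kcnc4 are printed because these members had the smallest p on the lower and the higher side over both diets. Each run holds the 250 bases before the start of the gene in RefSeq (GRCm38.p6), 5′ to 3′ on the strand of the gene, with GC boxes (GGGCGG, or CCGCCC where it lies on the other strand) in capitals. The runs are at chr19:6934516-6934765 and chr3:107458899-107459148, both on the minus strand. In GENCODE M21 Kcnc4 starts further upstream, at 107459552, so its run lies inside the gene as placed there.
Kcnk4: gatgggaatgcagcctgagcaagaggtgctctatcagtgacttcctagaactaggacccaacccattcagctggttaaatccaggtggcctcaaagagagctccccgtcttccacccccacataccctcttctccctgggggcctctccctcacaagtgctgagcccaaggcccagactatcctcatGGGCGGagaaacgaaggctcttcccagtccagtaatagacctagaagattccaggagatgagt
Kcnc4: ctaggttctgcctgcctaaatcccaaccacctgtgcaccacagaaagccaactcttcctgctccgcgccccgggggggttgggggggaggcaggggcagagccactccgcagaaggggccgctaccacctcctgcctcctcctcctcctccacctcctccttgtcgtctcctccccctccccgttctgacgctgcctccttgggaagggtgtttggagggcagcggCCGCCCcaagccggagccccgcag
Each holds 1 GC box. The promoter table matched 49 of 70 members and lists several promoters for some genes. With the first promoter listed for each gene, 25 members (51%) had at least 1 GC box on either strand, beside 32.9% of the 27025 genes in the table. The cAMP response element TGACGTCA was in 0 of the 49 (1.62% of all genes), the E box CACGTG in 3 (6.05%) and the TATA box TATAAA in 1 (13%), each sought on both strands. With every listed promoter a GC box was found in 31 members (63.3% beside 35.4% of all genes), the cAMP response element in 0 (1.77%), the E box in 3 (6.86%) and the TATA box in 2 (14.3%). A match of letters is a description and not a site of binding.

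By family, the silent subunits, which form no channel alone and change Kv2 currents, had 8 of 9 log2 fold changes below 0 in the knockout over both diets, with a median of -0.23, from -0.43 for Kcng3 to 0.02 for Kcng4. Of these, 2 (Kcns1 and Kcnv1) had an unadjusted p under 0.05 and 0 passed the test. Among all 17469 tested genes 8292 were below 0 and 9177 above 0 in this comparison, and 15.8% had an unadjusted p under 0.05. Kcnv1 measured 48.2 to 58.4 CPM in wild type and 38.1, 34.0, 55.0 and 48.3 CPM in knockout mice fed the standard diet, where KC888LL was again the highest knockout library. Kcnb2, a Kv2 pore gene, was at -0.24. Among the Kir genes 7 of 11 were above 0 with a median of 0.04, and Kcnj2 at 0.60 ± 0.17 (SE; edgeR, adjusted p = 0.127) was the 1 with an unadjusted p under 0.05. The GIRK genes Kcnj3, Kcnj6 and Kcnj9, which carry slow inhibition through G proteins, were at 0.04, -0.04 and 0.12, and the KATP pore genes Kcnj11 and Kcnj8 at -0.07 and 0.03. Kcnj16, a glial Kir gene, was at 0.04.

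Among the A-type channel genes Kcnd2 was at -0.08 and Kcnd3 at 0.16, while their KChIP partners spread more widely: Kcnip1 at 0.03, Kcnip2 at -0.36, Kcnip3 at 0.39 and Kcnip4 at -0.18. The BK pore gene Kcnma1 was at 0.12 and its subunit gene Kcnmb4 at -0.21. The SK genes Kcnn2 and Kcnn3 were at 0.09 and -0.13, and the sodium-activated channel genes Kcnt1 and Kcnt2 at 0.08 and -0.23. In the K2P family Kcnk1, Kcnk2 (TREK1), Kcnk9 (TASK3) and Kcnk13 were at 0.14, -0.29, -0.28 and -0.13. None of these passed the test in edgeR.

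**Figure D4:**
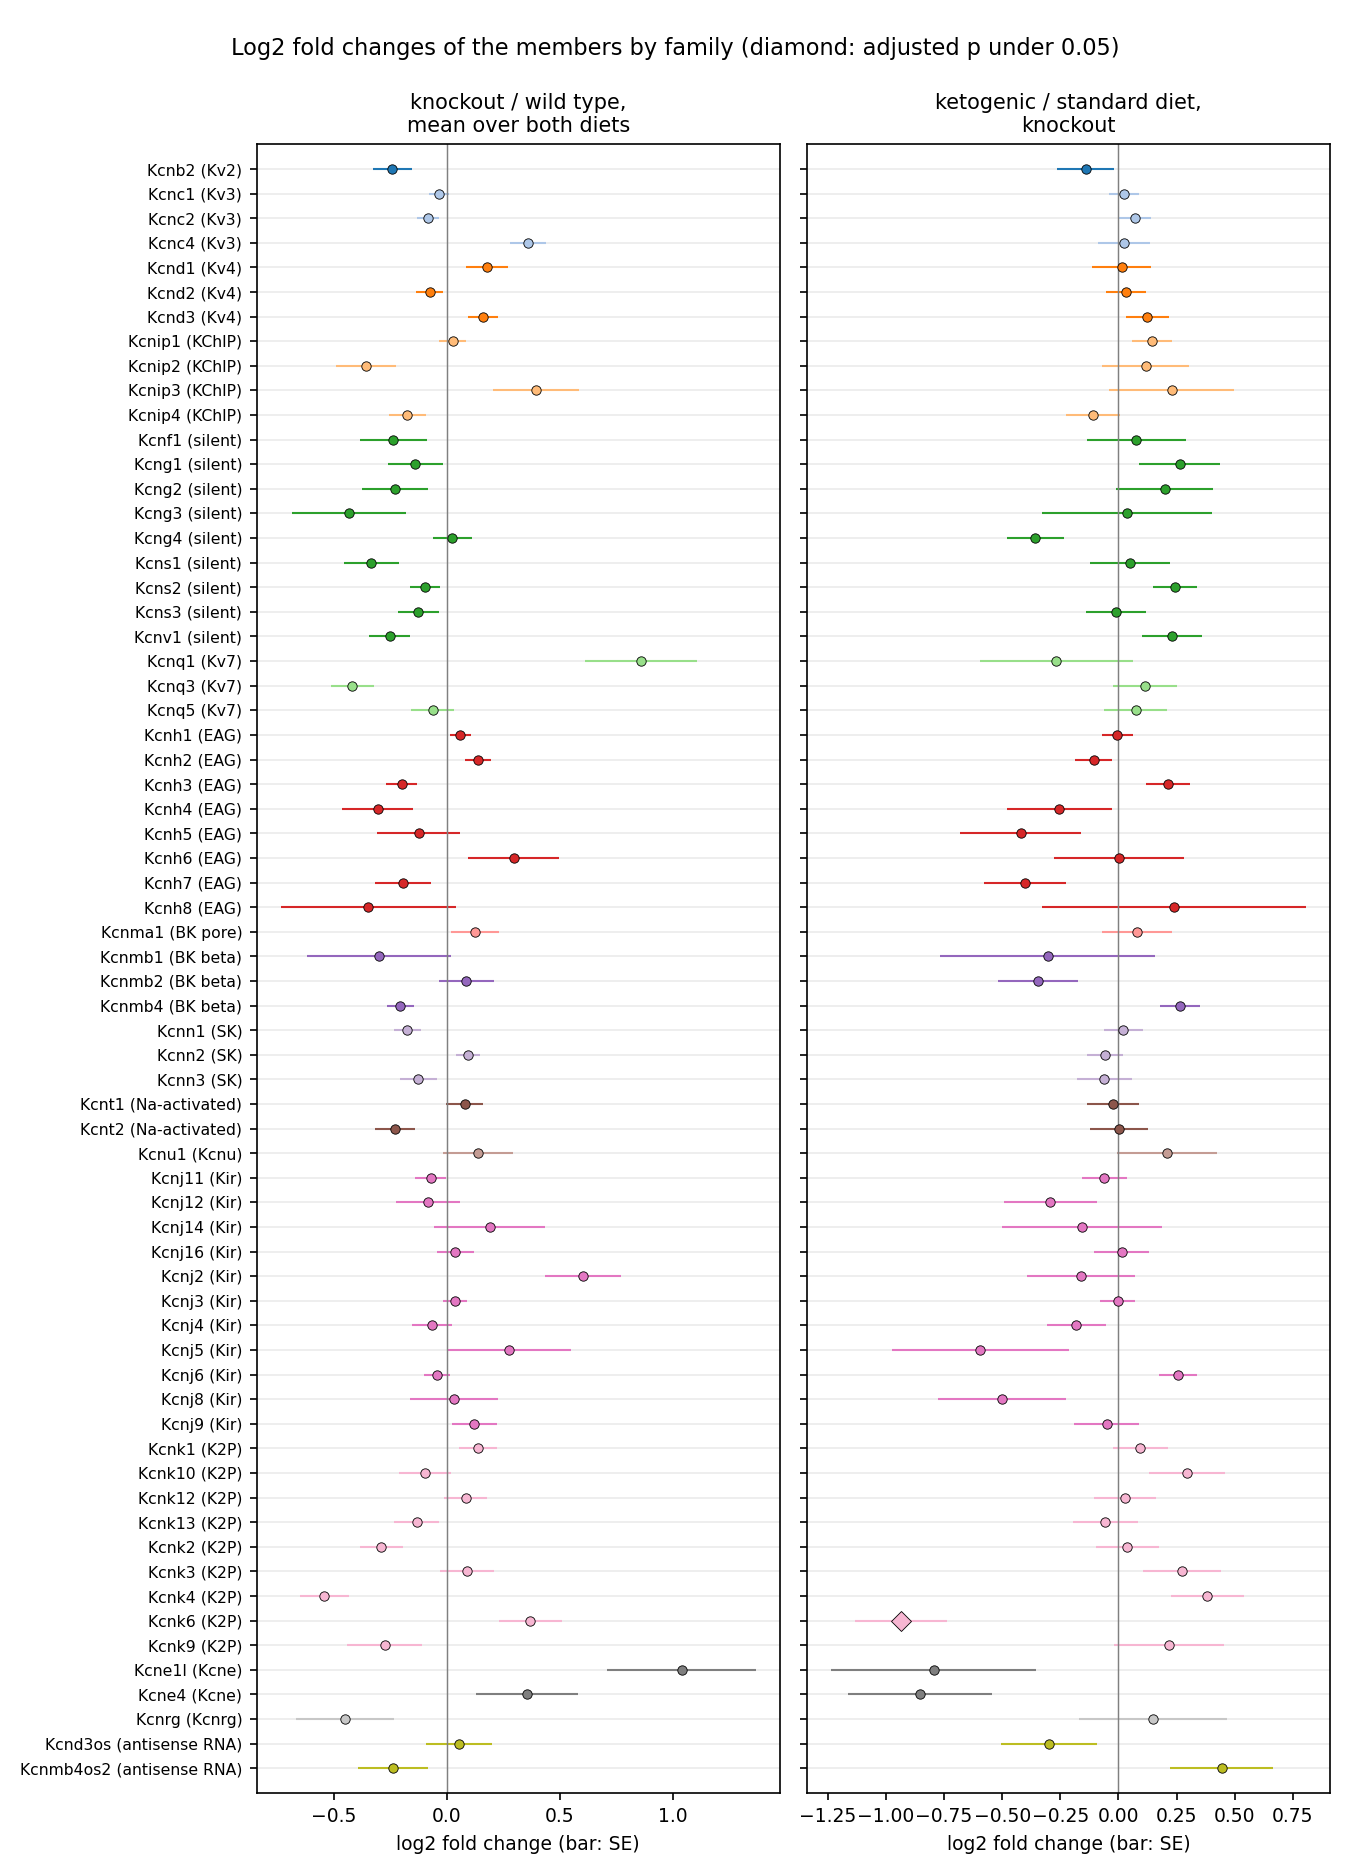
Log2 fold changes with SE bars of the members reported here, grouped by family, for knockout against wild type over both diets (left) and for ketogenic against standard diet in the knockout (right); diamonds mark an adjusted p under 0.05. On the left 8 of the 9 silent subunit genes lie below 0, beside 8292 of 17469 tested genes, and no diamond appears. On the right Kcnk6 is the diamond, at -0.93.

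The ketogenic and the standard diet were then compared within the knockout, which asks what the diet changes in mice of that genotype. Here 2 of 70 members passed the test in edgeR, 2.86% beside 1.16% of all tested genes, 1 higher and 1 lower. The lower one was Kcnk6, a K2P gene, which fell on the ketogenic diet. Of all tested genes 0.206% were called higher and 0.95% lower. An unadjusted p under 0.05 was reached by 10 members (14.3% beside 16.9% of all tested genes). They were 6 higher and 4 lower ones, or 8.57% and 5.71% beside 7.83% and 9.1%, and 29 of 70 members were below 0 (41.4% beside 48.5%). The count was 14 without KC888LL, 10 higher and 4 lower (21.8% of all tested genes). It was 6 without KC872RL, 3 higher and 3 lower (10.4%), and 6 without KC872RL and KC873RR, 1 higher and 5 lower (6.02%). The median log2 fold change of the members was 0.02 and that of all tested genes 0.0069. Both leans turned in other fits. With the Xist covariate 40 members were below 0, with a median of -0.0286. Without KC872RL and KC873RR 41 were below 0 (median -0.0283), and in the 12 libraries with Xist and little Ddx3y also 41 (median -0.0282). The medians of all tested genes in these fits were 0.0052, 0.0073 and 0.0075. Libraries did not overlap for 5 higher and 3 lower members, 7.14% and 4.29% beside 2.68% and 3.72% of all tested genes.

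Kcnk6 (chromosome 7, 29221926 to 29232515, minus strand) measured 7.85, 6.002, 4.38 and 4.69 CPM in knockout mice fed the standard diet and 3.81, 3.14, 2.93 and 2.17 CPM on the ketogenic diet. All 4 ketogenic libraries were below all 4 standard ones, and 3 of them were within or under the wild type range of 2.81 to 3.64 CPM. The log2 fold change was -0.93 ± 0.20 (SE; edgeR, adjusted p = 0.0275), and -0.01 in wild type. The call was lost without KC872RL (adjusted p = 0.136), KC873RR (0.0880), KC916RRL (0.0569), KC934R (0.0520) or KC935LL (0.0639). It held in 10 of 19 alternatives, with log2 fold changes from -1.07 to -0.60 and adjusted p from 0.00174 to 0.711.

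Beside the call of Kcnk6 stand several features of the standard diet group. The microglia marker sum was 380 ± 142 CPM (SD, n = 4) there and 232 ± 5.25 CPM (SD, n = 4) on the ketogenic diet, with all 6 markers below 0 and 0 calls. Without KC872RL and KC873RR, which carry that difference and also express Y-linked genes, the log2 fold change of Kcnk6 was -0.60 (edgeR, adjusted p = 0.676), and 0 members passed beside 0.0112% of all tested genes. That fit keeps KC888LL and KC893RL as the knockout libraries on the standard diet. With the Xist covariate the log2 fold change of Kcnk6 was -0.69 (edgeR, adjusted p = 0.243), and 0 members passed beside 0.0401% of all tested genes. With only the groups compared in the fit it was -0.94 (edgeR, adjusted p = 0.193). The choroid plexus marker sum ran from 46.3 to 545.8 CPM in the knockout on the standard diet and from 31.4 to 51.7 CPM on the ketogenic diet. In wild type mice fed the standard diet it ran from 33.2 to 1049 CPM. The 4 pan-neuronal markers were above 0 in this comparison (median 0.13, 0 calls), and the oligodendrocyte markers lower. The part of these markers in the result was not tested.

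Kcnj6, the GIRK2 gene, measured 56.2, 56.4, 70.01 and 62.1 CPM on the standard and 76.3, 71.3, 72.3 and 72.5 CPM on the ketogenic diet in the knockout. The groups did not overlap, with KC888LL just under the ketogenic libraries (log2 fold change 0.26 ± 0.08, SE; edgeR, adjusted p = 0.122). Kcnmb4 measured 22.9, 20.1, 24.8 and 22.7 CPM on the standard and 24.9, 30.7, 26.1 and 27.1 CPM on the ketogenic diet, where KC888LL and KC913RR nearly touched (log2 fold change 0.27 ± 0.09, SE; edgeR, adjusted p = 0.128). Kcng4 measured 9.86, 10.02, 8.06 and 9.45 CPM on the standard and 7.23, 7.03, 7.51 and 7.40 CPM on the ketogenic diet, all lower (log2 fold change -0.36 ± 0.12, SE; edgeR, adjusted p = 0.146). Kcne4 measured 2.72, 1.69, 1.41 and 1.33 CPM on the standard and 0.602, 1.27, 1.27 and 0.822 CPM on the ketogenic diet (log2 fold change -0.85 ± 0.31, SE; edgeR, adjusted p = 0.172). Its values are near the depth limit and the gap between the groups was small. Without KC888LL edgeR called 6 members, 8.57% beside 6.18% of all tested genes. Kcng1, Kcnh3, Kcnj6 and Kcnmb4 were among the higher ones, and Kcnk6 was lower.

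By family in the knockout, 9 of 11 Kir genes were below 0 on the ketogenic diet with a median of -0.16, with Kcnj6 (0.26) and Kcnj16 (0.01) above 0. The 4 Kv3 genes lay between 0.02 and 0.08, all above 0, and 7 of 9 silent subunit genes and 7 of 9 K2P genes were above 0. Among these the values of Kcns2 and Kcnk4 were 0.24 and 0.38, each with an unadjusted p under 0.05 and no call in edgeR. Among all 17469 tested genes 8993 were above 0 and 8476 below 0 in this comparison, and 16.9% had an unadjusted p under 0.05.

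In wild type mice the same diets were compared as the reference for the diet alone. None of the 70 members passed the test, beside 0.0114% of all tested genes, and 2 had an unadjusted p under 0.05 (2.86% beside 5.46% of all tested genes). Both were higher, beside 2.44% of all tested genes higher and 3.01% lower, but the direction turned with single libraries. Without KC890RL or KC843RL there were 0 higher and 1 lower (beside 4.6% and 5.29% of all tested genes), without KC842L 0 higher and 3 lower (5.41%), without KC897RR 1 higher and 2 lower (4.56%), and without KC844RR 3 higher and 1 lower (5.57%). With only the groups compared in the fit there were 4 higher and 2 lower (8.42%), and with no filter 4 higher and 1 lower (4.3%). Of all members, 37 of 70 were below 0 (52.9% beside 50.1%). The 2 members at an unadjusted p under 0.05 were Kcne4 at 0.77 ± 0.33 (SE, edgeR, adjusted p = 0.855) and the GIRK1 gene Kcnj3 at 0.16 ± 0.08 (SE, edgeR, adjusted p = 0.915). Over 19 alternatives the log2 fold change of Kcnj3 ran from 0.085 to 0.212. Kcne4 measured 0.628 to 0.974 CPM on the standard and 1.57, 1.57, 1.47 and 0.865 CPM on the ketogenic diet, where KC846L was the overlapping library. The BK pore gene Kcnma1 was the 1 member with no overlap, lower on the ketogenic diet (1.43% beside 2.42% of all tested genes; 0 members were higher without overlap, beside 2.46%). It measured 119 to 125 CPM on the standard and 116, 118, 110 and, in KC846L, 59.3 CPM on the ketogenic diet, so KC846L lay far below the rest and the other 3 just below the standard diet libraries (log2 fold change -0.29).

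The interaction of genotype and diet, which tests whether the diet difference itself differs between knockout and wild type, passed for 0 of 70 members and for 0% of all tested genes in edgeR. Of the members 5 had an unadjusted p under 0.05 (7.14% beside 7.48% of all tested genes), 2 above 0 and 3 below 0, beside 3.38% and 4.09%, each with an adjusted p of 0.654. There were 9 without KC888LL (11.5% of all tested genes) or KC846L (7.25%), 8 without KC900RLL (6.33%) or KC916RRL (8.44%), and 3 in the 12 libraries with Xist and little Ddx3y (3.05%). The smallest p was that of Kcne4 at -1.62 ± 0.45 (SE), which was -0.85 in the knockout and 0.77 in wild type. Kcnk6 was at -0.93 ± 0.28, Kcng4 at -0.52 ± 0.17 and Kcnmb4 at 0.31 ± 0.12 (SE). The diet difference of Kcnk6 in the knockout is therefore not shown to differ from that in wild type.

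Over both genotypes, 0 of 70 members passed the test between the diets in edgeR, beside 0.899% of all tested genes, and 7 had an unadjusted p under 0.05 (10% beside 14.4% of all tested genes). That count was 4 without KC872RL, 11 without KC888LL, 13 without KC913RR and 11 with the Xist covariate, beside 10.9%, 18.5%, 14.6% and 12.9% of all tested genes. The silent subunit gene Kcns2 at 0.21 ± 0.07 and the Elk gene Kcnh3 at 0.18 ± 0.07 were among the higher ones (SE; edgeR, adjusted p = 0.141 and 0.233). Without KC888LL edgeR called 2 members, both higher (2.86% beside 2.58% of all tested genes), among them Kcnh3 at 0.23 ± 0.06 (SE; adjusted p = 0.0495). Kcnk6 at -0.47 ± 0.14, the Kir2.2 gene Kcnj12 at -0.35 ± 0.14 and the Erg gene Kcnh2 at -0.13 ± 0.06 were the lower ones (SE; edgeR, adjusted p = 0.129, 0.265 and 0.304).

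The members differed between libraries of the same group more than most genes did. The median SD of log2 CPM was 0.17, 0.19, 0.17 and 0.22 for members in wild type and knockout on the standard diet and wild type and knockout on the ketogenic diet, beside 0.13, 0.15, 0.13 and 0.19 for all tested genes. Knockout libraries held part of that spread in an order shared by several members. Kcnip2 measured 145, 160, 227 and 152 CPM in KC872RL, KC873RR, KC888LL and KC893RL and 123, 225.5, 157 and 237.5 CPM in KC913RR, KC916RRL, KC934R and KC935LL, against 202.5 to 280.5 CPM in the 8 wild type libraries. KC888LL, KC916RRL and KC935LL were within the wild type range and the other 5 below it, and the same 3 libraries were the highest knockout libraries for Kcnq3.

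Gfap, the marker of reactive astrocytes, measured 2327, 1340, 348 and 611 CPM in KC872RL, KC873RR, KC888LL and KC893RL and 2018, 288, 1059 and 295 CPM in KC913RR, KC916RRL, KC934R and KC935LL, and 294 to 390 CPM in wild type. The 5 knockout libraries above the wild type range for Gfap were the 5 low ones for Kcnip2 and Kcnq3. Kcnj2 was 20.5, 18.0, 17.2, 20.2 and 16.4 CPM in these 5 and 10.1, 11.7 and 10.6 CPM in the other 3. Kcnip3 was 66.5, 58.5, 67.8, 118 and 70.8 CPM in them and 47.7, 49.7 and 43.5 CPM in the others. The pan-neuronal marker sum was lowest in the same 5, at 6378, 6770, 7182, 6678 and 7394 CPM, with 8030 to 9749 CPM in the remaining 11 libraries. These libraries were picked out by their values, so no test was made on them, and the part of astrocyte or neuron content was not tested.

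**Figure D5:**
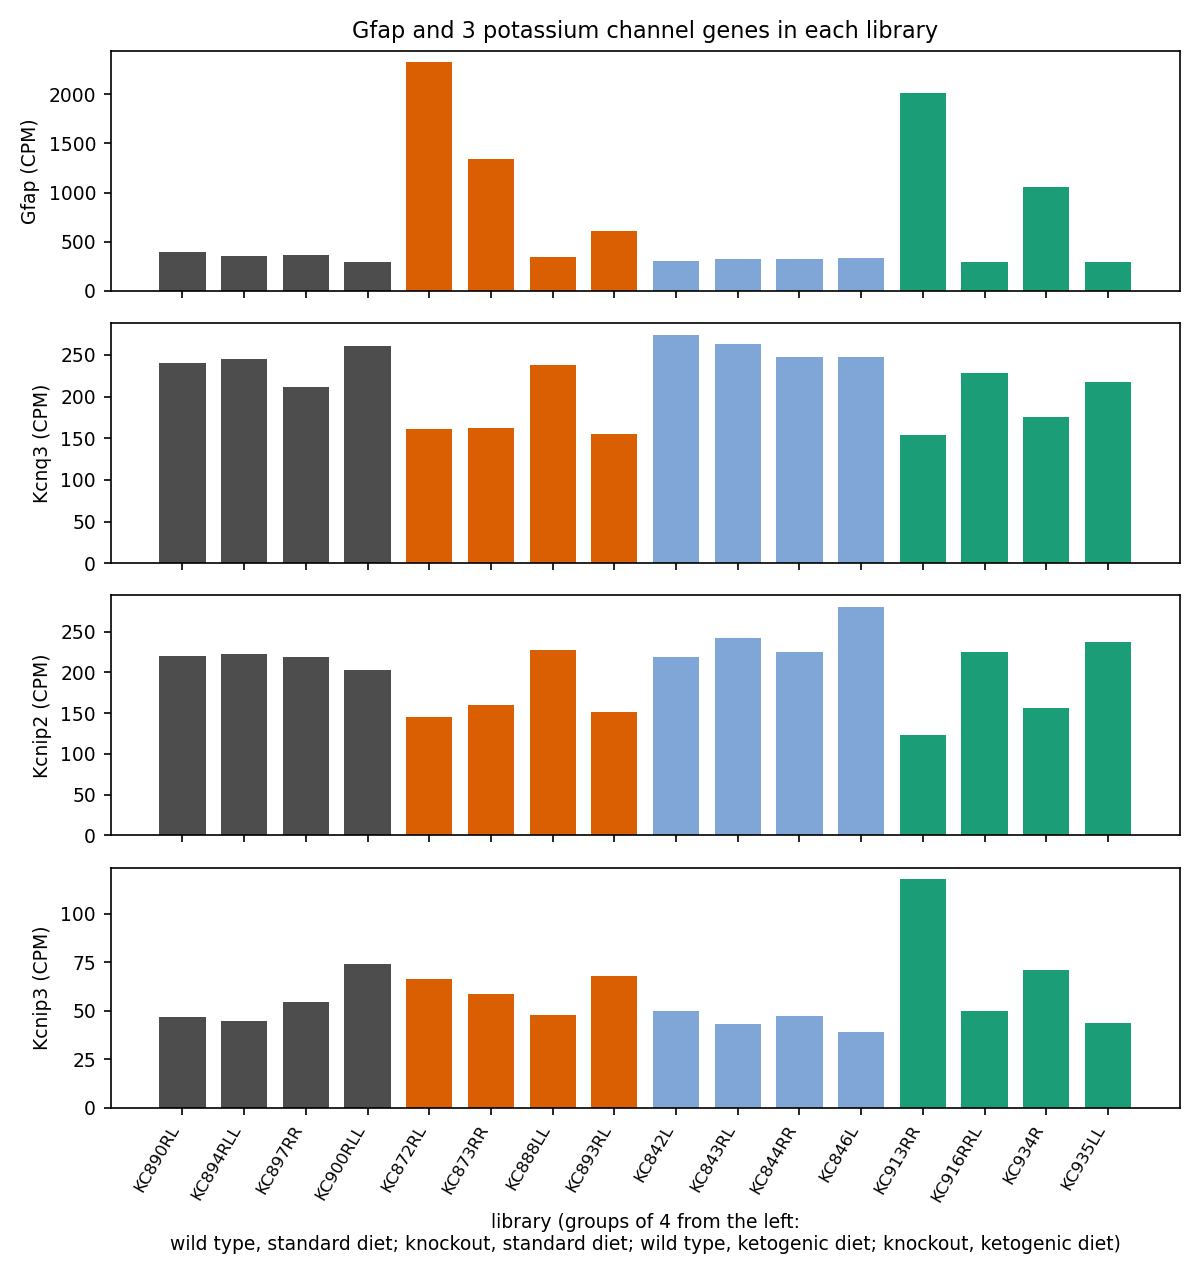
CPM (bars from 0) of Gfap, Kcnq3, Kcnip2 and Kcnip3 in each of the 16 libraries, coloured by group. In KC872RL, KC873RR, KC893RL, KC913RR and KC934R Gfap is above the wild type libraries while Kcnq3 and Kcnip2 are below them. KC888LL, KC916RRL and KC935LL lie within or just under the range of the wild type libraries of both diets together. For Kcnq3, KC916RRL and KC935LL are below the wild type libraries on their own diet (at most 228 against 247 to 274.5 CPM).

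Genes whose proteins bind or regulate these channels were listed outside the Kcn names: Dpp6 and Dpp10 for Kv4, Amigo1, Vapa and Vapb for Kv2, Lrrc26, Lrrc38, Lrrc52, Lrrc55 and Lingo1 for BK, the sulfonylurea receptors Abcc8 and Abcc9 for KATP, the anchor Ank3 for Kv7, and Rgs7, Rgs7bp and Gnb5 for GIRK. Of the 16, 15 were tested (Lrrc52 was not), and 0 passed in any of the 7 comparisons in edgeR. The median log2 fold change of the 15 was -0.05 for the knockout over both diets and 0.08 between diets in the knockout. In the knockout over both diets 0 were higher and 3 lower at an unadjusted p under 0.05: Abcc8 (-0.39), Amigo1 (-0.17) and Gnb5 (-0.15). Of all tested genes 8.14% were higher and 7.7% lower there. Gnb5, which with Rgs7 speeds the closing of GIRK channels, measured 96.8 ± 2.96 and 86.9 ± 6.25 CPM (SD, n = 4) in the 2 genotypes, wild type first, on the standard diet, and 101 ± 3.53 and 91.5 ± 4.09 CPM (SD, n = 4) on the ketogenic diet. Its log2 fold change was -0.16 ± 0.06 on the standard and -0.14 ± 0.06 on the ketogenic diet (SE; edgeR, adjusted p = 0.234 and 0.476). On the ketogenic diet in the knockout 3 were higher and 0 lower at an unadjusted p under 0.05: Ank3 (0.15), Dpp6 (0.12) and Lingo1 (0.61), beside 7.83% and 9.1% of all tested genes. Lingo1 varied widely there, at 309.5 ± 152.8 CPM against 202.1 ± 38.3 CPM on the standard diet (SD, n = 4). The knockout gave 1 higher and 2 lower on the standard diet (beside 7.64% and 6.69% of all tested genes) and 0 and 1 on the ketogenic diet (5.24% and 3.97%). Between diets there were 0 and 1 in wild type (2.44% and 3.01%) and 3 and 1 over both genotypes (6.27% and 8.13%), and the interaction gave 0 and 0 (3.38% and 4.09%).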

How the data were processed

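Hippocampal RNA of 16 mice was sequenced and the authors deposited 1 table of raw counts per gene. The submitters' processing notes name the genome build mm10 and DESeq2; the aligner, counter, annotation and use of strand are not given in the sources used here. Column names give genotype and diet but no replicate number, so columns were assigned to groups. The labels do not say whether mice were littermates.

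Counts were tested in edgeR 4.0.16 (R 4.3.3): filterByExpr with the groups left 17469 genes, all 70 members among them, then TMM factors and a robust quasi-likelihood fit with 1 coefficient per group and 12 residual degrees of freedom. The 7 contrasts were tested two-sided and adjusted by Benjamini-Hochberg over all tested genes; an adjusted p under 0.05 is a call. Standard errors came from the F statistic, CPM used effective library sizes, and CPM per kb divided by the exon length of GENCODE M21 per 1000 bases. Log2 CPM for the SDs used a prior count of 2. Fits were tested on simulated data.

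Members, families, partner genes, cell markers and the list of genes named whatever their values were chosen with earlier results of these data known. Besides that list, named genes were every called member and, per contrast, the 3 members of smallest unadjusted p under 0.05 in each direction; some members are counted with the others, but their own values are not reported here. Cell markers were summed by type (astrocyte, reactive astrocyte, microglia, oligodendrocyte and its precursor, endothelial, pericyte, choroid plexus, thalamus, striatum, interneuron, dentate granule cell, CA1, CA3, pan-neuronal). Alternatives were other size factors and filters, DESeq2 1.42.0, limma-voom (limma 3.58.1), no robust estimation, the groups compared alone, an Xist covariate and leaving out each library. Leaving out KC872RL and KC873RR, and keeping the 12 libraries that had over 100 CPM of Xist and less than 10 CPM of Ddx3y, were chosen after seeing the data. Both leave KC888LL and KC893RL as the knockout libraries on the standard diet.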

Additional observations from a re-analysis of the deposited data

Results flagged for a closer look

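Among the 44 named members, 176 groups of 4 libraries were examined for a library far from the other 3 (a gap to the nearest that takes up most of the range of the group, by Dixon's 95% critical value), and 15 groups held one, where chance gives about 1 in 20, or 8.8.

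In KC846L, a wild type library on the ketogenic diet that expresses Y-linked genes, 4 genes stood apart. Kcnma1, the BK pore gene, was 59.3 CPM there against 110 to 118 CPM in the other 3 libraries. Kcnd2 was high at 196 CPM and Kcnk1 at 79.8 CPM, while Kcne4 was low at 0.865 CPM. The summed dentate granule cell markers of this library were 447 CPM, against 267 to 299 CPM in the rest of its group; their part in these values was not tested.

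In KC888LL, the library labelled knockout with Kcna1 at 82.0 CPM, 3 genes stood apart from the other knockout libraries on the standard diet. Kcnq3 was 237 CPM there against 155 to 162 CPM, and the silent subunit gene Kcnf1 49.3 CPM against 30.8 to 31.1 CPM. The SK2 gene Kcnn2 was 76.2 CPM against 83.2 to 84.7 CPM. In all 3 cases KC888LL lay on the wild type side.

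In KC916RRL, from a knockout mouse fed the ketogenic diet, Kcnd2 was 168 CPM, Kcnh7 50.8 CPM and the KATP pore gene Kcnj11 28.0 CPM, each above the other 3. In wild type on the standard diet, Kcnc1 was low in KC890RL at 221 CPM, Kcnip2 low in KC900RLL at 202.5 CPM, Kcnj6 high in KC894RLL at 79.1 CPM and the TASK3 gene Kcnk9 low in the same library at 16.02 CPM. Kcnip1 was low in KC872RL at 14.0 CPM.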

How the results depend on the processing

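The log2 fold changes of members named for a small p in a comparison kept their sign there under every alternative run; other members, many near 0, were not followed. The calls depended on single libraries. Leaving out 1 library gave 0 to 12 called members between the genotypes on the standard diet, 0 to 10 over both diets, 0 to 6 between diets in the knockout and 0 to 2 between diets over both genotypes; the upper counts came without KC888LL, beside 5.73%, 4.96%, 6.18% and 2.58% of all tested genes. The counts were 0 in every such fit for the knockout on the ketogenic diet, the diets in wild type and the interaction. Leaving out KC872RL or KC873RR gave 0 in the diet comparison of the knockout (0.158% and 0.26% of all tested genes). Leaving out KC913RR, KC916RRL, KC934R or KC935LL gave 1 there (0.49%, 0.496%, 1.08% and 1.04%), and leaving out KC916RRL or KC935LL gave 2 for the knockout over both diets (0.722% and 0.339%).

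For the knockout over both diets DESeq2 called 6 members (2.38% of all tested genes) and no filter, limma-voom and no robust estimation 1 each (0.214%, 0.218% and 0.258%). DESeq2 called 4 members on the standard diet (1.01%), and DESeq2 and no filter 1 each between diets over both genotypes (2.47% and 0.516%). Between diets in the knockout 0 members were called with the Xist covariate, with only the groups compared, without KC872RL and KC873RR, or in the 12 libraries with Xist, beside 0.0401%, 0.0535%, 0.0112% and 0.0169% of all tested genes. The median log2 fold change of the members there went from 0.0237 to -0.0286 with the Xist covariate, -0.0283 without that pair and -0.0282 in the 12 libraries, and the median between the genotypes on the standard diet to -0.0051 in the 12 libraries. With 1 library left out the members' medians ran from -0.1026 to -0.0284 for the knockout on the standard diet, -0.0893 to -0.0383 on the ketogenic diet, -0.0926 to -0.0533 over both diets, 0.005 to 0.0578 between diets in the knockout, -0.0349 to 0.0122 in wild type, -0.0249 to 0.015 over both genotypes and 0.0196 to 0.121 for the interaction. The median of the interaction, 0.0443, turned to -0.0136 with the Xist covariate, -0.0282 without KC872RL and KC873RR and -0.0414 in the 12 libraries. The cause was not tested.

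No paired analysis was possible because the table columns carry no replicate numbers. Total counts of 13440230 to 22309504 left low members such as Kcnh8 and Kcnj5 with at most 21 and 39 counts in a library.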
